A study of Homo sapiens with 32 samples.

Results

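The histone deacetylase genes described here are HDAC1 to HDAC9 and HDAC11, the 10 symbols chosen by name from the 25559 gene symbols counted in each library. All 10 were present, each had counts in 32 of 32 libraries (the lowest count was 15, for HDAC9), and all 10 passed the low-count filter, as did 17801 symbols in all. Zinc-dependent histone deacetylases remove acetyl groups from lysines of histones and other proteins. Class I enzymes (HDAC1, HDAC2, HDAC3 and HDAC8) are mainly nuclear, and the first 3 of them work inside repressor complexes. Class IIa enzymes (HDAC4, HDAC5, HDAC7 and HDAC9) bind MEF2 transcription factors and leave the nucleus when 14-3-3 proteins hold them after phosphorylation. HDAC6 (class IIb) is a cytoplasmic tubulin deacetylase, and HDAC11 is the only class IV enzyme.

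Messenger RNA was sequenced from 4 established human T-cell lines after 96 hours of culture. PF382 was derived from T-cell acute lymphoblastic leukemia and TLOm1 from adult T-cell leukemia, while HH and H9 stand for cutaneous T-cell lymphoma in the labels. Each line gave 8 libraries, which were romidepsin plus azacitidine at 3 doses, azacitidine alone at those 3 doses, romidepsin alone, and untreated cells. Romidepsin is an inhibitor of class I histone deacetylases that is used against T-cell lymphoma, while azacitidine, an analogue of cytidine, enters nucleic acids and traps the enzymes that methylate DNA. PF382 received 1.25 nM romidepsin, and TLOm1 and H9 received 1 nM, while in HH the drug was at 1.25 nM in the combinations and at 1 nM alone, so that the dose of romidepsin and the presence of azacitidine differ together in HH. The azacitidine doses were 125, 250 and 500 nM for the lines PF382 and TLOm1, but 50, 125 and 250 nM for the lines HH and H9, and they are called low, middle and high within a line. Combination doses carry no unit in the labels and were read as nM. There was 1 library per condition in a line, so the 4 lines served as replicates where 1 treatment was set against another. Each line is 1 cell source that stands for no disease. For drug effects within a line or averaged over lines, libraries of a line at its different doses served as replicates. Adjusted p and SE of averaged effects therefore leave out the spread of an effect between lines, and hold for these 4 lines only. The dose slope also counted each library of a line as a replicate. The labels do not say that libraries of a line came from separate cultures, so p-values measure the spread between these libraries, which may be partly technical.

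Library totals ran from 16175077 to 32496676 counts. Levels below are CPM (counts scaled to library size, with TMM factors), and a difference was called when the adjusted p of edgeR's quasi-likelihood F test, with Benjamini-Hochberg adjustment over all genes tested, was under 0.05. Every adjusted p and standard error (SE) below comes from that test unless another tool is named. Overlap between groups of libraries is given as a description only, and the share of all genes without overlap was not counted. Untreated cells of 4 of 4 lines held the T-cell receptor chain CD3E (563 CPM in PF382, 42 CPM in TLOm1, 85.8 CPM in HH and 229 CPM in H9). Other T-cell markers were nearly absent from some untreated lines. The kinase LCK was at 1.41 CPM in TLOm1 and had no count in HH. In TLOm1 the receptor chains CD3D and CD3G were at 0.768 and 0.128 CPM, and CD5, CD7 and CD28 at 0.47, 0.256 and 0.341 CPM. CD7 was at 0.0873 CPM in HH, and CD2 at 0.464 CPM in H9. Summed levels of 14 T-cell markers over the libraries with romidepsin and without it were 4130 to 4820 CPM and 4530 to 5020 CPM in PF382, 1080 to 1500 CPM and 1380 to 1690 CPM in TLOm1, 1620 to 1820 CPM and 1910 to 2230 CPM in HH, and 2180 to 2430 CPM and 2050 to 2440 CPM in H9. Of 6 B-cell markers 3 rose with romidepsin and 3 with azacitidine, and of 8 epithelial and stromal markers 3 and 5 rose. Of all genes tested, 20.7% rose with romidepsin and 17.1% with azacitidine, averaged over lines. The epithelial and stromal sum reached 197 CPM with romidepsin and 49.8 CPM without it in PF382, and 328 and 205 CPM in TLOm1. It reached 7.53 and 4.06 CPM in HH, and 200 and 206 CPM in H9. The summed B-cell level was 376 to 473 CPM over all HH libraries, most of it BLK (429 CPM in untreated HH), and 142 CPM at most in the other lines. Erythroid and megakaryocyte markers stayed under 0.2 CPM in sum in every library, and myeloid markers under 8 CPM. The part of these other markers in the deacetylase results was not tested. A change in a bulk level can come from the share of cells or from RNA per cell, which cannot be told apart.

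The methyltransferases that azacitidine traps act on CG dinucleotides. The CG content of the start regions is therefore shown for 4 genes on which the results below turn. HDAC11 rose and HDAC7 fell with each drug in the averages over lines and doses, in which HDAC1, HDAC5 and HDAC9 also rose. Neither HDAC11 nor HDAC7 was called by edgeR after a single drug against untreated cells. HDAC4 and HDAC9 differed most between lines. Each window runs from 250 bases before to 50 bases after a RefSeq start (build GRCh38.p14, not the build of the counts), 5′ to 3′ on the gene's strand, in lower case with every CG in capitals. HDAC4 and HDAC9 have several annotated starts, and the window with the most CG is printed.
HDAC11 (chr3:13480056-13480355, plus strand): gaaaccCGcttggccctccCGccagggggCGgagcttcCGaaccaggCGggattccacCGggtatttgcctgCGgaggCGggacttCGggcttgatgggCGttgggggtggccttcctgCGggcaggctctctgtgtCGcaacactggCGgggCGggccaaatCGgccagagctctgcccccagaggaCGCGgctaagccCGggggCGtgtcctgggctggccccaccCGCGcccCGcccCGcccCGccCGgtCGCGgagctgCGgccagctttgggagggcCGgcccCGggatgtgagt
HDAC7 (chr12:47819854-47820153, minus strand): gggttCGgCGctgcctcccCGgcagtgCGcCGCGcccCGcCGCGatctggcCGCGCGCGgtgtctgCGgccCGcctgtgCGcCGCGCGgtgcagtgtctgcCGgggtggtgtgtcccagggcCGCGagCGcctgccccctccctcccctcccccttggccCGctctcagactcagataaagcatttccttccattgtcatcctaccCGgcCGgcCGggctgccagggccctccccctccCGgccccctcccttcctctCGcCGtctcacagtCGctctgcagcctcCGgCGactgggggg
HDAC4 (chr2:239401600-239401899, minus strand): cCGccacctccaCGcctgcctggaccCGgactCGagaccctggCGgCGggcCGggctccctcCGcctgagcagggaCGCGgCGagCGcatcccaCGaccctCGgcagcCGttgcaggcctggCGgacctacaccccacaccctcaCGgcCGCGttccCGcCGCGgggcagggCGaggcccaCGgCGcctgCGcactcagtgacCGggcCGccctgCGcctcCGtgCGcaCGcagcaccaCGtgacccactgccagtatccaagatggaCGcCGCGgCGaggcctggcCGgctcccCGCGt
HDAC9 (chr7:18086575-18086874, plus strand): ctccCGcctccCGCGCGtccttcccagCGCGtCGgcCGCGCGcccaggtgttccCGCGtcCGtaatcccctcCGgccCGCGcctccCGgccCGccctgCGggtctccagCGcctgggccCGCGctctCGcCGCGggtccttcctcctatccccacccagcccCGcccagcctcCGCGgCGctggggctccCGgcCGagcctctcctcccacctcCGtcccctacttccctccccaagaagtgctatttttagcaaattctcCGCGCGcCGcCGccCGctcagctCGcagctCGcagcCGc
These windows hold 30 CG in HDAC11, 33 in HDAC7, 40 in HDAC4 and 41 in HDAC9, against a median of 14 over 35116 RefSeq windows of 300 bases, 96.0% of which hold at least 1. Other annotated starts of HDAC4 hold between 3 and 10 CG and those of HDAC9 between 0 and 5, and the counts do not say which start was used. The GC box letters GGGCGG, which contain a CG, were searched on both strands and occur in 45.0% of all windows. They occur 5 times in the HDAC11 window, 3 times in that of HDAC9, 1 time in that of HDAC4 and 0 times in that of HDAC7. Of the 10 genes, 9 matched the RefSeq table, and the windows of HDAC1, HDAC2, HDAC3 and HDAC8 hold 28, 24, 31 and 9 CG. No methylation was measured, and a letter match is a description only.

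The lines differed most in 2 class IIa genes. In untreated cells HDAC9 stood at 7.63 CPM in PF382, 72.7 CPM in TLOm1, 1 CPM in HH and 0.579 CPM in H9, a ratio of 126 between the highest and the lowest line. HDAC4 stood at 223 CPM in PF382, 25.2 CPM in TLOm1, 4.84 CPM in HH and 47.4 CPM in H9, a ratio of 46.1. For the other 8 genes this ratio ran from 1.47 (HDAC8) to 4.29 (HDAC11). Over all 8 libraries of a line, HDAC9 had a lowest, median and highest level of 44.6, 68.8 and 88 CPM in TLOm1, 6.96, 9.14 and 11.2 CPM in PF382, 0.964, 1.4 and 3.21 CPM in HH, and 0.579, 1.1 and 1.59 CPM in H9. TLOm1 and PF382 overlapped with no other line in HDAC9, and HH and H9 overlapped with each other. For HDAC4 the lowest, median and highest levels were 122, 167 and 223 CPM in PF382, 23.6, 26.8 and 41.1 CPM in TLOm1, 12, 22.7 and 47.4 CPM in H9, and 4.84, 5.23 and 6.6 CPM in HH. PF382 stood above and HH below every other library for HDAC4, while TLOm1 and H9 overlapped.

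**Figure D1:**
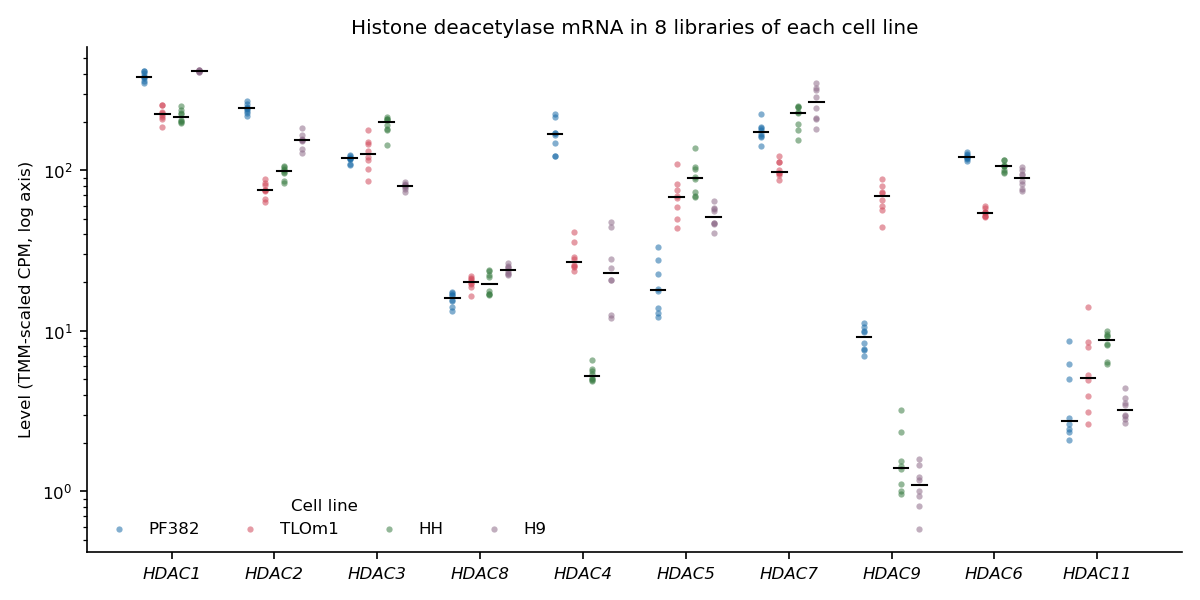
Level of each histone deacetylase gene in the 8 libraries of each of 4 lines (points, TMM-scaled CPM on a log axis; black bars are medians). HDAC9 is at 44.6 to 88 CPM in TLOm1 and at 0.579 to 1.59 CPM in H9, and HDAC4 is at 122 to 223 CPM in PF382 and at 4.84 to 6.6 CPM in HH.

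With treatment and dose as terms, levels differed between lines for 10 of 10 genes, and 98.1% of all genes tested did so. Among pairs of lines, 54 of 60 gene-by-pair differences were called, where the share of all genes called was 81.3% for PF382 minus TLOm1, 79.1% for PF382 minus HH, 75.7% for PF382 minus H9, 71.5% for TLOm1 minus HH, 78.7% for TLOm1 minus H9 and 77.8% for HH minus H9. The pairs not called were PF382 and TLOm1 for HDAC3 (log2 difference -0.10 ± 0.08 SE, adjusted p = 0.242), PF382 and H9 for HDAC11 (-0.15 ± 0.19, adjusted p = 0.473), TLOm1 and HH for HDAC1 (0.02 ± 0.05, adjusted p = 0.767) and HDAC8 (0.04 ± 0.07, adjusted p = 0.572), and TLOm1 and H9 for HDAC4 (0.13 ± 0.22, adjusted p = 0.586) and HDAC5 (0.23 ± 0.13, adjusted p = 0.119). For HDAC3 the PF382 minus TLOm1 difference was called with opposite signs in the subsets, at -0.36 with romidepsin (adjusted p = 0.00177) and 0.15 without it (adjusted p = 0.0389). For HDAC8 the TLOm1 minus HH difference was called in the libraries without romidepsin (0.21, adjusted p = 0.0459). The HH minus H9 difference of HDAC9 was not called by limma-voom (adjusted p = 0.0996), without the low-count filter (0.0551) or in the libraries without romidepsin (0.609). H9 was the lowest line for HDAC3, with a median of 80.2 CPM, against 119 CPM in PF382, 126 CPM in TLOm1 and 199 CPM in HH. PF382 was the lowest line for HDAC5, at a median of 18 CPM, against 68.3 CPM in TLOm1, 89.1 CPM in HH and 51.3 CPM in H9. HDAC11 was highest in HH (8.76 CPM, median of 8), while the medians were 2.76 CPM in PF382, 5.1 CPM in TLOm1 and 3.21 CPM in H9.

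Set on a per-length scale (untreated CPM per kilobase of the principal transcript), HDAC1 was the highest of the 10 genes in 4 of 4 lines, at 165 in PF382, 98.1 in TLOm1, 92.3 in HH and 198 in H9. HDAC3 followed in PF382, TLOm1 and HH (63.9, 61.9 and 91.9 CPM per kilobase), with HDAC7 next (54.9, 30 and 61.5). In H9 HDAC7 (85.8 CPM per kilobase) stood above HDAC3 (40.3). HDAC11 was the lowest in PF382 (0.786 CPM per kilobase) and TLOm1 (1.05), and HDAC9 in HH (0.313) and H9 (0.181). These ranks were the same when all exonic bases of a gene were used as its length. Transcript lengths come from GENCODE and not from the counts' own annotation, and the ranks of the middle genes moved with the choice of length.

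Of the class I genes, HDAC8, HDAC3 and HDAC1 rose in level with romidepsin on average, each by 0.22 or less on the log2 scale. Romidepsin was tested in 16 pairs of libraries that shared line and azacitidine dose, 4 pairs in each line. Averaged over the lines, HDAC8 rose by 0.22 ± 0.04 (log2 change ± SE, adjusted p = 6.79e-05), HDAC3 by 0.20 ± 0.05 (adjusted p = 0.00313) and HDAC1 by 0.07 ± 0.03 (adjusted p = 0.0454), and HDAC2 had an estimate of 0.05 ± 0.03 (adjusted p = 0.164), which DESeq2 called (0.07, adjusted p = 0.0441). Of all 10 genes 8 were called, 6 higher and 2 lower, where 39.2% of all genes were called (20.7% higher, 18.5% lower). Their median log2 change was 0.13, against 0.02 over all genes tested. Most of the 16 pairs held azacitidine in both libraries. With romidepsin alone against untreated cells no class I gene was called. The estimates were 0.12 ± 0.09 for HDAC8, 0.08 ± 0.11 for HDAC3, -0.01 ± 0.06 for HDAC1 and 0.10 ± 0.10 for HDAC2.

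HDAC8 encodes a class I enzyme that acts outside the large repressor complexes, on the cohesin subunit SMC3 among others. In HH it stood at 21.5, 23.7, 23.8 and 22.2 CPM with romidepsin at 0, 50, 125 and 250 nM azacitidine, against 17, 17.7, 16.7 and 16.9 CPM without romidepsin. In PF382 it stood at 17.2, 16.6, 16.7 and 17.4 CPM with romidepsin at 0, 125, 250 and 500 nM azacitidine, against 15.3, 15.5, 14 and 13.3 CPM without. In these lines the libraries with and without romidepsin did not overlap, and over the 4 lines 15 of 16 pairs were higher with romidepsin, the exception being TLOm1 without azacitidine. The change was called in HH (log2 change 0.41 ± 0.07 SE, adjusted p = 0.00025) and PF382 (0.23 ± 0.07, adjusted p = 0.0233), and not in TLOm1 (0.14 ± 0.07, adjusted p = 0.166) or H9 (0.10 ± 0.07, adjusted p = 0.494). The PF382 call was lost when H9, the low-dose, the middle-dose or the high-dose pairs were left out (adjusted p = 0.0513, 0.056, 0.177 and 0.125).

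HDAC3 encodes the catalytic subunit of the NCoR corepressor complex. In TLOm1 it stood at 131, 146, 150 and 178 CPM with romidepsin at 0, 125, 250 and 500 nM azacitidine, against 121, 115, 102 and 86.2 CPM without romidepsin. In HH it stood at 207, 208, 206 and 216 CPM with romidepsin at 0, 50, 125 and 250 nM azacitidine, against 180, 192, 178 and 144 CPM without. Neither line had overlap between its libraries with and without romidepsin, and in TLOm1 the gap widened at each dose, with pair differences of 0.11, 0.35, 0.56 and 1.04 on the log2 scale. Romidepsin changed HDAC3 by 0.51 ± 0.10 in TLOm1 (log2 change ± SE, adjusted p = 0.000554) and by 0.28 ± 0.10 in HH (adjusted p = 0.0374). The estimates were 0 ± 0.10 in PF382 (adjusted p = 1) and below 0.01 in size in H9, and the 4 line effects were unequal (adjusted p = 0.0151). The inequality was not called without PF382, H9, the low-dose pairs or the middle-dose pairs (adjusted p = 0.0544, 0.0569, 0.0648 and 0.161). The HH call was lost without the same lines and pairs (adjusted p = 0.0596, 0.0713, 0.0705 and 0.123).

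HDAC1 and HDAC2 encode the paired catalytic subunits of the Sin3, NuRD, CoREST and MiDAC complexes. HDAC1 was higher with romidepsin in 13 of 16 pairs, but the differences within pairs did not exceed 0.24 on the log2 scale, and groups overlapped in 4 of 4 lines. Its averaged call was lost in 7 of 13 alternative fits, among them those without H9 (adjusted p = 0.0602), HH (0.095) or PF382 (0.254), and without the low-dose (0.092), middle-dose (0.232) or high-dose (0.221) pairs. HDAC2 stood at 249, 270, 259 and 245 CPM with romidepsin in PF382, against 218, 234, 241 and 227 CPM without, at 0, 125, 250 and 500 nM azacitidine. In HH it stood at 106, 99.6, 105 and 102 CPM with romidepsin, against 95.5, 97.7, 85.8 and 82.9 CPM without, at 0, 50, 125 and 250 nM. HDAC2 rose in both lines without overlap (log2 change 0.15 ± 0.06 SE, adjusted p = 0.043 in PF382; 0.20 ± 0.06, adjusted p = 0.015 in HH). The PF382 call was lost without H9 (adjusted p = 0.0726), the low-dose (0.154) or middle-dose pairs (0.174), the pairs without azacitidine (0.161) or the low-count filter (0.0707), and the HH call without the middle-dose pairs (0.126). In H9 its level was lower with romidepsin in 4 of 4 pairs, a change that was not called (-0.11 ± 0.06, adjusted p = 0.314), and the line effects were unequal (adjusted p = 0.0131). Without H9 the line effects were not called unequal (adjusted p = 0.132), nor without the middle-dose pairs (adjusted p = 0.152).

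HDAC7, a class IIa gene highly expressed in thymocytes that in mouse holds genes of negative selection silent, was the only gene of the 10 with a lower level in at least 15 of the 16 romidepsin pairs. In PF382 it stood at 168, 162, 163 and 141 CPM with romidepsin at 0, 125, 250 and 500 nM azacitidine, against 225, 177, 182 and 185 CPM without romidepsin. In TLOm1 the levels were 93.2, 112, 95.9 and 87.1 CPM with romidepsin at the same doses, against 123, 112, 100 and 95.8 CPM without. In both lines the libraries with romidepsin were the lower ones in nearly every pair, with overlap in TLOm1 and none in PF382. In HH the gene was at 226, 193, 178 and 154 CPM with romidepsin at 0, 50, 125 and 250 nM azacitidine, against 252, 247, 248 and 230 CPM without. In H9 it was at 324, 243, 209 and 181 CPM with romidepsin at those doses, against 351, 316, 286 and 211 CPM without. The HH groups did not overlap, and the H9 groups overlapped. In H9 the level was lower at each higher azacitidine dose, with and without romidepsin. Averaged over lines, HDAC7 fell by 0.28 with romidepsin (log2 scale, SE 0.04, adjusted p = 7.76e-06), and it stayed called in 13 of 13 alternative fits. It fell in PF382 (-0.28 ± 0.08, adjusted p = 0.00835), HH (-0.39 ± 0.08, adjusted p = 0.000539) and H9 (-0.29 ± 0.08, adjusted p = 0.0254), and was not called in TLOm1 (-0.15 ± 0.08, adjusted p = 0.145). The H9 call was lost without the low-dose pairs (adjusted p = 0.203) or the middle-dose pairs (adjusted p = 0.349). The annotation places SLC48A1 on the opposite strand within HDAC7, and the strand setting of the counts is not given in the sources used here, so reads of the 2 genes may be mixed.

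**Figure D2:**
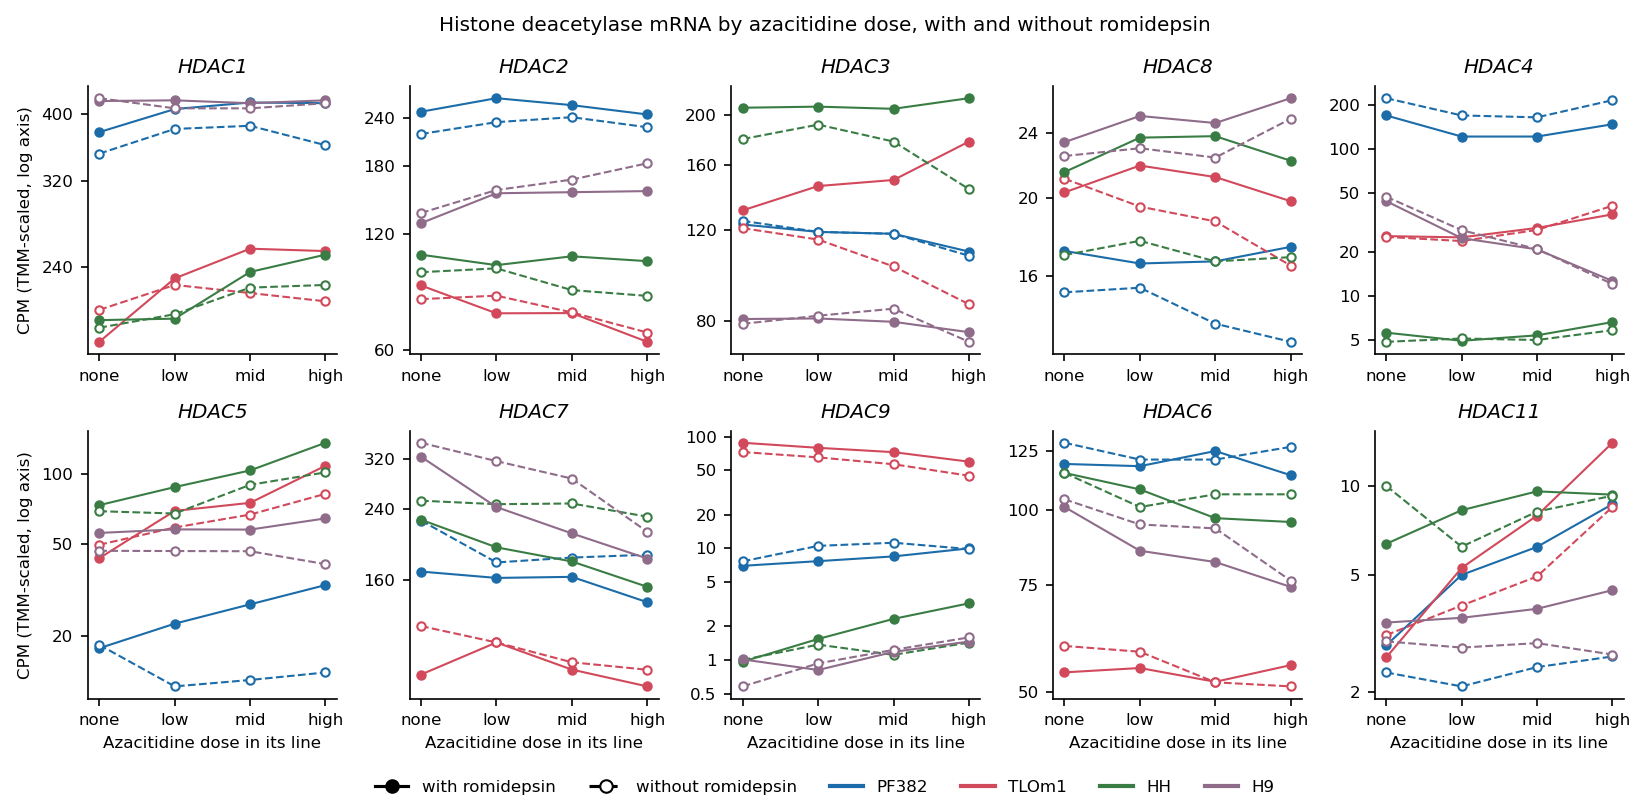
Level of each gene (TMM-scaled CPM, log axes that differ between panels) against the azacitidine dose within a line (none, low, middle, high), with romidepsin (filled points, solid lines) and without it (open points, dashed lines), 1 library per point. HDAC11 in PF382 climbs to 8.67 CPM with romidepsin and stays at or below 2.64 CPM without it, HDAC4 in H9 declines to 12.6 CPM with romidepsin and 12 CPM without, and HDAC7 declines in H9 with and without romidepsin.

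HDAC5 and HDAC4, other class IIa genes, moved in opposite directions in PF382. HDAC5 in PF382 stood at 17.7, 22.6, 27.4 and 33.2 CPM with romidepsin at 0, 125, 250 and 500 nM azacitidine, against 18.3, 12.1, 12.9 and 13.9 CPM without romidepsin. The level without azacitidine was alike in both libraries, and every library with both drugs was above every library without romidepsin. In H9 it stood at 55.8, 57.8, 57.7 and 64.5 CPM with romidepsin at 0, 50, 125 and 250 nM azacitidine, against 46.7, 46.6, 46.5 and 40.9 CPM without, with no overlap. Averaged over lines HDAC5 rose with romidepsin by 0.41 ± 0.07 (log2 change ± SE, adjusted p = 0.000197, higher in 14 of 16 pairs), and the call held in 13 of 13 alternatives. Romidepsin alone against untreated cells gave an HDAC5 estimate of 0.04 ± 0.17, which was not called. Within lines, over all pairs, HDAC5 was called in PF382 (0.81 ± 0.15, adjusted p = 0.000663) and not in TLOm1 (0.16 ± 0.14, adjusted p = 0.404), HH (0.28 ± 0.14, adjusted p = 0.146) or H9 (0.38 ± 0.14, adjusted p = 0.138). When the pairs lacking azacitidine were left out, it was called in TLOm1 (0.277, adjusted p = 0.0156), HH (0.363, 0.0031) and H9 (0.429, 0.00493). Without PF382 it was called in HH (adjusted p = 0.0211) and H9 (0.016).

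HDAC4 in PF382 stood at 170, 122, 122 and 148 CPM with romidepsin at 0, 125, 250 and 500 nM azacitidine, against 223, 170, 165 and 216 CPM without romidepsin. Each library with romidepsin was below its match, though the groups overlapped. The fall was called in PF382 (log2 change -0.46 ± 0.06 SE, adjusted p = 2.84e-06), and estimates elsewhere were -0.02 ± 0.06 in TLOm1 (adjusted p = 0.881), 0.12 ± 0.09 in HH (adjusted p = 0.347) and -0.06 ± 0.06 in H9 (adjusted p = 0.672). The line effects were unequal (adjusted p = 0.000268). The averaged fall (-0.11 ± 0.03, adjusted p = 0.0171) rested on PF382: without that line it was 0.01 (adjusted p = 0.985), and the effects were no longer called unequal (adjusted p = 0.484). It was also lost without the low-dose (adjusted p = 0.102) or middle-dose pairs (0.0714). Small RNA genes lie inside HDAC4 and HDAC9 in the annotation, and their share of these counts was not tested.

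HDAC9, whose protein restrains regulatory T cells in mice, had line-specific responses at very different levels. In HH it stood at 0.964, 1.54, 2.33 and 3.21 CPM with romidepsin at 0, 50, 125 and 250 nM azacitidine, against 1, 1.37, 1.11 and 1.43 CPM without romidepsin. In TLOm1 it stood at 88, 79.3, 72.5 and 59.6 CPM with romidepsin at 0, 125, 250 and 500 nM azacitidine, against 72.7, 65.1, 56.5 and 44.6 CPM without. In HH each library with both drugs was above every library without romidepsin, and in TLOm1 the gap was in the same direction at each dose while the groups overlapped. HDAC9 rose with romidepsin in HH (log2 change 0.71 ± 0.20 SE, adjusted p = 0.00904) and TLOm1 (0.33 ± 0.10, adjusted p = 0.0123), and its estimate was -0.25 ± 0.12 in PF382 (adjusted p = 0.111) and 0.05 ± 0.21 in H9 (adjusted p = 0.983). The HH call was lost without the middle-dose or high-dose pairs (adjusted p = 0.133 and 0.116), and that of TLOm1 without the middle-dose pairs (adjusted p = 0.0968). Line effects were unequal (adjusted p = 0.00617, and 0.184 without PF382, 0.156 without the middle-dose pairs), and the averaged rise of 0.21 ± 0.08 (adjusted p = 0.0425) was not called without HH (adjusted p = 0.737), TLOm1 (0.287), the middle-dose (0.169) or the high-dose pairs (0.245).

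HDAC11, whose enzyme removes long-chain fatty acyl groups from lysines, had the largest averaged romidepsin change of the 10 genes and stood at 14 CPM or less in every library. In PF382 it stood at 2.88, 4.99, 6.21 and 8.67 CPM with romidepsin at 0, 125, 250 and 500 nM azacitidine, against 2.33, 2.09, 2.43 and 2.64 CPM without romidepsin. In TLOm1 the levels were 2.62, 5.27, 7.93 and 14 CPM with romidepsin at those doses, against 3.12, 3.93, 4.93 and 8.48 CPM without. PF382 groups did not overlap, whereas in TLOm1 the level climbed with dose in both series and the groups overlapped. In HH the levels were 6.36, 8.27, 9.58 and 9.34 CPM with romidepsin at 0, 50, 125 and 250 nM azacitidine, against 10, 6.22, 8.18 and 9.26 CPM without. In H9 they were 3.44, 3.57, 3.83 and 4.43 CPM with romidepsin, against 2.97, 2.83, 2.93 and 2.68 CPM without, at the same doses. The H9 groups did not overlap, and the untreated HH library was the highest of its line. HDAC11 rose by 0.52 ± 0.10 on average (log2 change ± SE, adjusted p = 0.000279, higher in 14 of 16 pairs). This call held in 13 of 13 alternatives with values between 0.29 and 0.70. Romidepsin alone against untreated cells gave an HDAC11 estimate of -0.11 ± 0.25, which was not called. The change was 1.21 ± 0.20 in PF382 (adjusted p = 0.000135), 0.45 ± 0.19 in TLOm1 (adjusted p = 0.0783, and 0.0379 by limma-voom), -0.01 ± 0.18 in HH (adjusted p = 1) and 0.42 ± 0.20 in H9 (adjusted p = 0.3). When the pairs lacking azacitidine were left out, HDAC11 was also called in TLOm1 (0.629, adjusted p = 0.00249). Over all pairs, the effects by line are those compared next. These effects were unequal between lines (adjusted p = 0.0128), but not without PF382 (adjusted p = 0.265), HH (adjusted p = 0.0725), or the low-dose (0.0682), middle-dose (0.153) or high-dose (0.0719) pairs.

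HDAC6 was not called for romidepsin on average (log2 change -0.06 ± 0.03 SE, adjusted p = 0.107, higher in 5 of 16 pairs) or in any line. By line, romidepsin changed 6 of the 10 genes in PF382, where 30.7% of all genes were called, 2 in TLOm1 (32.6%), 5 in HH (27.7%) and 1 in H9 (4.47%). Of the 10 genes 5 had unequal line effects (HDAC2, HDAC3, HDAC4, HDAC9 and HDAC11), where 33% of all genes did. For HDAC5 the inequality was not called by edgeR (adjusted p = 0.0834), but it was by DESeq2 (0.0455), by limma-voom (0.0447) and by edgeR without the pairs lacking azacitidine (0.000394).

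Azacitidine at any dose was compared with no azacitidine within each line, 6 libraries against 2, matched on romidepsin. Averaged over lines, HDAC11 (log2 change 0.51 ± 0.17 SE, adjusted p = 0.0285), HDAC9 (0.37 ± 0.13, adjusted p = 0.0367), HDAC5 (0.30 ± 0.11, adjusted p = 0.0383) and HDAC1 (0.13 ± 0.04, adjusted p = 0.0109) rose, while HDAC7 (-0.26 ± 0.07, adjusted p = 0.00506) and HDAC6 (-0.14 ± 0.04, adjusted p = 0.00916) fell. These 6 of 10 genes compare with 27.6% of all genes, 17.1% of them higher and 10.5% lower. The median log2 change of the 10 was 0.01, against 0.05 over all genes. HDAC7 alone kept its call in 12 of 12 alternatives. Without the middle-dose libraries it was the only one of the 6 still called, where 12.1% of all genes were called. The averaged rise of HDAC11 was not called without PF382 (adjusted p = 0.084), TLOm1 (0.273) or the highest dose (0.0516), nor that of HDAC5 without HH (0.149), TLOm1 (0.361) or the highest dose (0.0859). HDAC9 lost its call without H9 (adjusted p = 0.103), HH (0.229) or PF382 (0.142) and by limma-voom (0.125), HDAC1 without TLOm1 (0.132) or HH (0.0545), and HDAC6 without H9 (0.0989). In TLOm1, the line with the highest level, the HDAC9 estimate was -0.36 (adjusted p = 0.166), at 44.6, 62.4 and 79.3 CPM (lowest, median, highest of 6) with azacitidine against 72.7 and 88 CPM without it. That difference was called by limma-voom (-0.37, adjusted p = 0.0275) and without the lowest dose (-0.47, adjusted p = 0.037).

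HDAC4 fell with azacitidine in H9. Its level there was 44.2, 24.7, 20.7 and 12.6 CPM with romidepsin at 0, 50, 125 and 250 nM azacitidine, and 47.4, 28, 20.8 and 12 CPM without romidepsin at those doses. The 6 libraries with azacitidine (lowest 12, median 20.8, highest 28 CPM) lay below both libraries without it (44.2 and 47.4 CPM), and each higher dose gave a lower level in both series. The log2 change was -1.21 ± 0.22 (SE, adjusted p = 0.00204), a fold of 0.433, and it was not called when the middle-dose libraries were left out (-1.25, adjusted p = 0.093). Without those libraries 0.306% of all genes were called in H9. In TLOm1 the 6 libraries with azacitidine spanned 23.6 to 41.1 CPM around the 2 without it (25.2 and 25.5 CPM), with an estimate of 0.26 ± 0.24 (adjusted p = 0.455). Estimates were -0.33 ± 0.22 in PF382 (adjusted p = 0.374) and 0.07 ± 0.28 in HH (adjusted p = 0.943). The PF382 fall was called when the highest dose was left out (-0.448, adjusted p = 0.00229), where 13% of all genes were called. Averaged over lines, HDAC4 was not called with all libraries. It was called as a fall without HH (-0.431, adjusted p = 0.038), TLOm1 (-0.499, 0.0181), the lowest dose (-0.306, 0.0387) or the highest dose (-0.345, 0.000164). Line effects of azacitidine on HDAC4 were unequal (adjusted p = 0.0184), and were not called so without H9 (0.253), TLOm1 (0.0608) or the middle dose (0.237).

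In H9 3 other genes changed with azacitidine, and in TLOm1 3 genes did. HDAC7 fell in H9 (log2 change -0.50 ± 0.13 SE, adjusted p = 0.021), where 6 libraries with azacitidine had a lowest, median and highest level of 181, 227 and 316 CPM against 324 and 351 CPM without it. HDAC6, the tubulin deacetylase, also fell there (-0.28 ± 0.08, adjusted p = 0.0271), with 74.5, 83.7 and 94.5 CPM against 101 and 104 CPM. HDAC2 rose in H9 (0.28 ± 0.08, adjusted p = 0.0405), with 153, 156 and 183 CPM against 128 and 136 CPM. None of these 3 overlapped between libraries with and without azacitidine. In TLOm1 HDAC11 rose by 1.31 ± 0.35 (log2 change ± SE, adjusted p = 0.0133), at 3.93, 6.6 and 14 CPM (lowest, median, highest of 6) against 2.62 and 3.12 CPM. HDAC5 rose by 0.71 ± 0.22 (adjusted p = 0.0264), at 58.9, 72.4 and 109 CPM against 43.4 and 49.6 CPM. HDAC1 rose by 0.23 ± 0.07 (adjusted p = 0.0258), at 214, 229 and 255 CPM against 187 and 208 CPM. No overlap occurred in TLOm1 for these genes either. These genes are named because they were called, so the lack of overlap adds no separate support. Leaving out the middle-dose libraries ended each of these 6 calls, with adjusted p between 0.0918 for HDAC11 and 0.264 for HDAC2. That fit called 0.306% of all genes in H9 and 3.14% in TLOm1, and its estimates were 1.438 for HDAC11 and 0.277 for HDAC2. The H9 calls of HDAC2 and HDAC6 were also lost without PF382 (adjusted p = 0.0617 and 0.0602), that of HDAC2 without HH (0.058) or the low-count filter (0.0611), and the TLOm1 calls of HDAC1 and HDAC5 without H9 (0.0578 and 0.0548).

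No gene of the 10 was called for azacitidine in PF382, where 0 had an unadjusted p under 0.05, edgeR called 8.33% of all genes, and DESeq2 and limma-voom called none of the 10. Without the highest dose, edgeR called HDAC4 in PF382 (adjusted p = 0.00229). In HH edgeR called none of the 10 and 5.87% of all genes; 4 of the 10 had an unadjusted p under 0.05, DESeq2 called HDAC9 (adjusted p = 0.0468) and limma-voom none. The 4 genes in H9 and the 3 in TLOm1 compare with 5.86% and 18.7% of all genes. Line effects of azacitidine were unequal for 3 genes, HDAC2 (adjusted p = 0.025), HDAC4 and HDAC9 (adjusted p = 0.0489), where 10.7% of all genes were unequal. For HDAC2 this was lost without H9 (0.307), TLOm1 (0.0599) or the middle dose (0.263), and for HDAC9 without any 1 of the 4 lines (adjusted p between 0.0593 and 0.723), with RLE scaling (0.0533) or without the low-count filter (0.0568).

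Within the 24 libraries with azacitidine, 3 of the 10 genes changed with each doubling of the dose, close to the 28.4% of all genes that did. HDAC11 rose by 0.27 ± 0.06 per doubling (log2 change ± SE, adjusted p = 0.00293) and HDAC5 by 0.18 ± 0.04 (adjusted p = 0.000916), and HDAC7 fell by 0.12 (SE 0.03, adjusted p = 0.00135). For example, HDAC5 in HH stood at 88.1, 104 and 137 CPM with romidepsin at 50, 125 and 250 nM azacitidine, and at 67.7, 90.1 and 102 CPM without romidepsin. In TLOm1 it stood at 69.5, 75.3 and 109 CPM with romidepsin at 125, 250 and 500 nM, and at 58.9, 67 and 82.4 CPM without. The level climbed at each step in both lines and both series, while in H9 without romidepsin HDAC5 was at 46.6, 46.5 and 40.9 CPM. All 3 slopes lost their call when the lowest or the highest dose was left out (adjusted p between 0.0573 and 0.155). Fitted separately, the slope with romidepsin was 0.30 ± 0.09 for HDAC11, 0.23 ± 0.05 for HDAC5 and -0.15 ± 0.04 for HDAC7 (adjusted p = 0.0188, 0.00376 and 0.00551), and 21.2% of all genes were called. Without romidepsin it was 0.24 ± 0.09, 0.14 ± 0.05 and -0.09 ± 0.04 in the same order of genes (adjusted p = 0.111, 0.101 and 0.105), with 8.69% of all genes called. The 1 member called without romidepsin was HDAC3, whose slope was -0.12 ± 0.03 (adjusted p = 0.0237). The differences between these slopes were not called, 0 of 10 and 0.00577% of all genes by edgeR with 1 unadjusted p under 0.05 (HDAC3, whose slope with romidepsin was 0.02 ± 0.03, adjusted p of the difference = 0.315).

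The next comparisons set 1 treatment against untreated cells in 4 lines, with 1 library of each per line, and they share the untreated libraries. Romidepsin plus 250 nM azacitidine, the highest azacitidine dose that 4 of 4 lines received, changed 5 of the 10 genes, where 23% of all genes were called (14.2% higher, 8.76% lower). HDAC7 stood at 163 CPM in PF382, 95.9 CPM in TLOm1, 154 CPM in HH and 181 CPM in H9 with both drugs, against 225, 123, 252 and 351 CPM in the same lines untreated. HDAC5 stood at 27.4, 75.3, 137 and 64.5 CPM in PF382, TLOm1, HH and H9 with both drugs, against 18.3, 49.6, 69.3 and 46.7 CPM untreated. HDAC7 was lower and HDAC5 higher in 4 of 4 lines, although levels of different lines overlapped between the groups. HDAC7 fell by 0.62 (log2 scale, SE 0.11, adjusted p = 0.000652) and HDAC5 rose by 0.66 ± 0.17 (adjusted p = 0.00836). HDAC11 stood at 6.21, 7.93, 9.34 and 4.43 CPM with both drugs in PF382, TLOm1, HH and H9, against 2.33, 3.12, 10 and 2.97 CPM untreated. It was higher in 3 of 4 lines, the exception being HH, and rose by 0.80 ± 0.25 on average (adjusted p = 0.0235). HDAC1 rose by 0.22 ± 0.06 (adjusted p = 0.00997, higher in 3 of 4 lines), and HDAC6 fell by 0.25 (SE 0.07, adjusted p = 0.0165, lower in 4 of 4 lines). HDAC4 was not called by edgeR (-0.60 ± 0.28, adjusted p = 0.134) but was by limma-voom (-0.76, adjusted p = 0.0203), with line changes of -0.87 in PF382, 0.20 in TLOm1, 0.45 in HH and -1.91 in H9.

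These 5 calls differed in how far they rested on single lines or on the tool. HDAC7 stayed called when any 1 of the 4 lines was left out. HDAC5 was not called without HH (adjusted p = 0.0968), HDAC11 without PF382 (0.11), TLOm1 (0.104) or H9 (0.0754) or by limma-voom with all lines (0.0614), HDAC1 without PF382 (0.0851), TLOm1 (0.0676) or HH (0.149), and HDAC6 without TLOm1 (0.059), HH (0.0817) or H9 (0.124). In fits of only the libraries compared, and in fits without a term for the cell line, 0 of the 10 genes were called in this comparison. These fits called 0.231% and 0.0281% of all genes. With romidepsin plus 125 nM azacitidine, 1 of the 10 genes was called, HDAC7 (-0.46 ± 0.11, log2 change ± SE, edgeR adjusted p = 0.0173, lower in 4 of 4 lines), where 7% of all genes were called. Leaving out H9 (0.0815), HH (0.105) or PF382 (0.0879) ended this call.

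Against romidepsin alone, the same combination changed 4 genes, where 14.1% of all genes were called. HDAC11 (0.91 ± 0.25, log2 change ± SE, adjusted p = 0.0182), HDAC5 (0.62 ± 0.17, adjusted p = 0.018) and HDAC1 (0.23 ± 0.06, adjusted p = 0.0131) were higher in 4 of 4 lines, although the HDAC1 difference in H9 was 0 to 2 decimals. HDAC7 was lower (-0.36 ± 0.11, adjusted p = 0.0404), with line differences of -0.04 in PF382, 0.04 in TLOm1, -0.56 in HH and -0.84 in H9. Without HH 0 of these 4 genes were called, without TLOm1 1, without PF382 2 and without H9 3. These fits called 7.2%, 8.23%, 9.5% and 7.83% of all genes, in that order. The HDAC7 call was also lost with RLE scaling (adjusted p = 0.0595) and with the stricter low-count filter (0.0589). In HH this comparison also sets 1.25 nM romidepsin against 1 nM.

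Single drugs and their sum gave no called gene among the 10. Romidepsin alone against untreated cells called 0 of the 10 and 0.0169% of all genes by edgeR, with 1 unadjusted p under 0.05 (HDAC7, log2 change -0.26 ± 0.11 SE, lower in 4 of 4 lines), and DESeq2 and limma-voom also called 0. Azacitidine at 125 nM called 0 (0.461% of all genes), with 0 unadjusted p under 0.05 and 0 calls by DESeq2 and limma-voom. At 250 nM azacitidine called 0 by edgeR (5.99% of all genes) with 2 unadjusted p under 0.05, and DESeq2 and limma-voom each called 1, HDAC7 (adjusted p = 0.047 and 0.0407). The combination against 250 nM azacitidine called 0 by edgeR (5.67% of all genes) with 6 unadjusted p under 0.05, 1 by DESeq2 (HDAC5, adjusted p = 0.0242) and 0 by limma-voom. Tested against the added log2 changes of both single drugs, the combination called 0 of the 10 and 0% of all genes by edgeR. It had 2 unadjusted p under 0.05, HDAC11 (0.82 ± 0.35) and HDAC5 (0.52 ± 0.24), and 0 calls by DESeq2 or limma-voom. Over all azacitidine doses, a test added after the data were seen gave a romidepsin effect that was larger with than without azacitidine by 0.79 ± 0.16 for HDAC11 (log2 difference ± SE, adjusted p = 0.159) and 0.47 ± 0.11 for HDAC5 (adjusted p = 0.265), and 0.00562% of all genes were called.

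**Figure D3:**
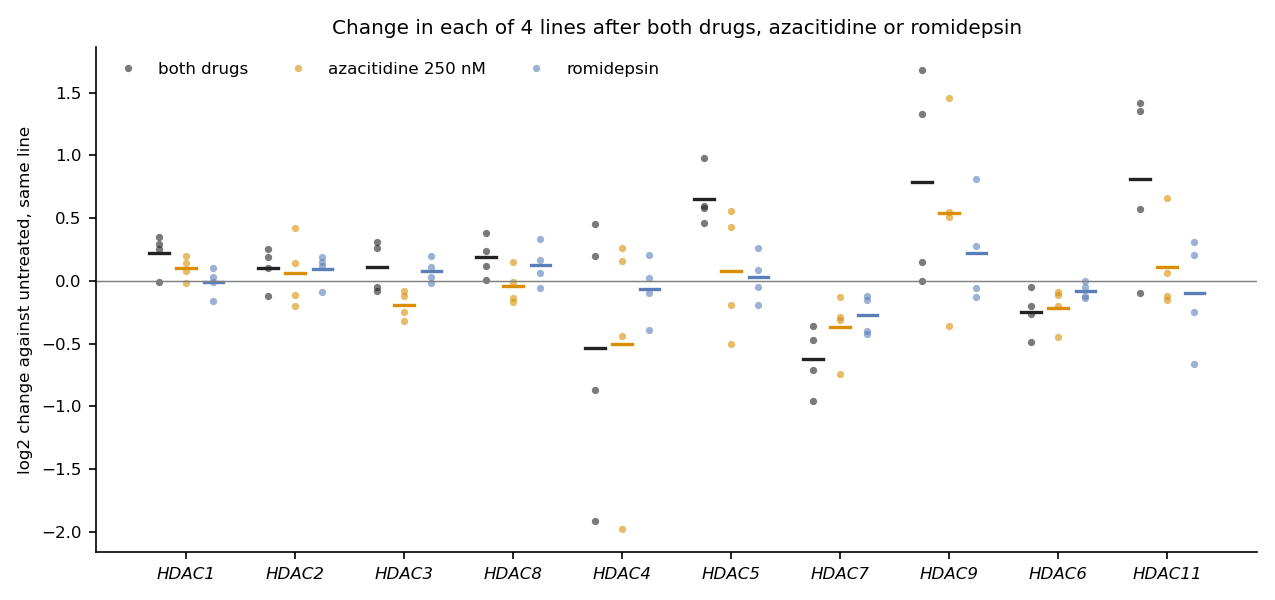
Log2 change against untreated cells of the same line after romidepsin plus 250 nM azacitidine (black), 250 nM azacitidine (orange) and romidepsin (blue), 1 point per line and a bar at the mean of 4 lines, for each of the 10 genes. After both drugs HDAC7 is lower in 4 of 4 lines (-0.36 to -0.96) and HDAC5 higher in 4 of 4 (0.46 to 0.98), and the 3 sets of changes share the untreated libraries.

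Partner genes of these deacetylases were called for romidepsin on average in part, and no list was tested as a group. Of 16 Sin3 complex genes 1 rose and 6 fell (median log2 change -0.08), among them ING1 (-0.39), ARID4A (-0.20) and ING2 (-0.19), with BRMS1L rising (0.25). Of 13 NuRD genes 1 rose and 6 fell (median -0.04), led by CDK2AP1 (-0.30), the helicase CHD3 (-0.26), MTA2 (-0.25) and the histone chaperone RBBP4 (-0.13). Of 8 CoREST genes 3 rose and 0 fell (median 0.04): RCOR2 (0.52), PHF21A (0.15) and the lysine demethylase KDM1A (0.11). Among genes of the NCoR complex TBL1X rose (0.37) and the corepressor NCOR1 fell (-0.24). Of 4 MiDAC genes ZNF541 (1.04) and TRERF1 (0.21) rose and C14orf43, the files' symbol for ELMSAN1, fell (-0.08). Of 10 tested partners of class IIa enzymes (MEF2 factors and 14-3-3 proteins) 1 rose and 2 fell, YWHAG (0.12), YWHAH (-0.22) and YWHAE (-0.12). These values are averaged log2 changes, each set beside 20.7% of all genes higher and 18.5% lower and a median of 0.02.

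Enzymes that add acetyl groups and proteins that read them were mostly lower where they were called. Of 10 histone acetyltransferases 0 rose and 6 fell with romidepsin (median log2 change -0.20), led by CREBBP (-0.36), KAT6B (-0.25), KAT7 (-0.25) and KAT2A (-0.22). Of 22 acetyl-lysine readers 1 rose and 13 fell (median -0.15), with CECR2 at 1.58, PBRM1 at -0.34, ATAD2B at -0.31 and BRD1 at -0.28. Of 7 sirtuins, the NAD-dependent deacetylases, SIRT6 rose (0.24) and SIRT7 (-0.27), SIRT1 (-0.26) and SIRT5 (-0.12) fell. HDAC10, the other zinc-dependent family member and a polyamine deacetylase, fell by 0.15 (SE 0.04, adjusted p = 0.00848). MAPK12 overlaps HDAC10 on the same strand in the annotation, and its share of these counts was not tested. Of 7 genes known to respond to deacetylase inhibitors 4 rose, TXNIP (1.42), GSN (1.30), CLU (1.14) and the cell cycle inhibitor CDKN1A (0.98), and 2 fell, TYMS (-0.29) and CTPS (-0.12), both named after their values were seen.

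With azacitidine on average, the same lists are set beside 27.6% of all genes called and a median log2 change of 0.05. Of 16 Sin3 genes 1 rose (SAP30L, 0.17) and 2 fell (FAM60A, -0.15, and PHF12, -0.12), and of 13 NuRD genes 3 rose and 3 fell, led by CHD3 (-0.35), CDK2AP1 (0.22), CHD4 (0.18) and MTA3 (-0.18). Among CoREST genes RCOR2 rose by 1.48 and RCOR1 by 0.32, while PHF21A fell (-0.19). Of 10 histone acetyltransferases HAT1 (-0.27) and KAT8 (-0.21) fell and 0 rose. Of 7 sirtuins SIRT7 (0.26), SIRT1 (0.23) and SIRT2 (0.20) rose and SIRT5 fell (-0.35). Of 22 readers 4 rose and 4 fell, with CECR2 at 3.09, BAZ2B at -0.30, ATAD2B at -0.23 and BPTF at -0.23. SFN, a 14-3-3 protein, rose by 3.17 and YWHAQ by 0.14 among 10 class IIa partners. Among NCoR complex genes CORO2A (0.23) and GPS2 (0.18) rose and TBL1X (-0.24) fell, of 4 MiDAC genes C14orf43 fell (-0.18), and of 7 inhibitor-responsive genes GSN (1.19) and CLU (1.12) rose. HDAC10 was not called (0.02, log2 change).

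After the line means were removed, the genes whose log2 CPM followed a member most closely over the 32 libraries were MXRA7 (Pearson r = 0.927) and AIF1L (0.916) for HDAC11, SEMA6B (0.917) and KREMEN1 (0.914) for HDAC5, LTA4H (0.904) and OSBPL9 (0.88) for HDAC3, and TNIP1 (0.899) and BCKDHA (0.892) for HDAC7. For HDAC6 the closest of all tested genes was HDAC7 (0.845), followed by BCKDHA (0.816). HDAC1 was followed by LEPREL4 and NDST1 (both 0.875), HDAC4 by MAPK8IP3 (0.865) and ARHGEF18 (0.832), HDAC8 by GDAP1 (0.864) and LRRC16B (0.862), and HDAC9 by G3BP1 (0.778) and DTNBP1 (0.773). These correlations describe 32 libraries that share lines, treatments and scaling, and they were chosen as the highest of 17801 genes.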

How the data were processed

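Per the labels, RNA came from Qiagen RNeasy columns, libraries from the TruSeq Stranded mRNA kit and reads from a NextSeq 500; poly(A) RNA and depletion of ribosomal RNA are each named. The authors deposited 1 table of raw counts per gene symbol for each of the 32 libraries. STAR, DESeq2, limma and the build GRCh37.p2 are named without versions or steps, per the submitters' processing notes; which counter, annotation and strand mode were used is not given in the sources used here. Counts were used as deposited.

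Groups come from titles and line labels; 1 title misspells PF382. Fits used edgeR 4.0.16 (R 4.3.3) with TMM, robust quasi-likelihood dispersions and filterByExpr (minimum count 10, minimum total 15), and SE is the absolute log2 change over the square root of F. One model held 10 treatment-dose groups and the line (19 residual degrees of freedom; line levels were contrasts of it). Others held 16 line-by-dose cells with a romidepsin effect per line (12), 8 line-by-romidepsin cells with an azacitidine effect per line (20), and, over 24 libraries, a log2 dose slope (15; 17322 genes). These count libraries of a line as independent. No 2 libraries were identical. Fits were tested on simulated data. Alternatives were RLE scaling, no filter or a stricter filter (1 CPM in 8 libraries), DESeq2 1.42.0, limma-voom (limma 3.58.1), other sample sets, each line or dose left out, and no line term. The line term is the replicate block: samples are paired by cell line. All 10 genes are named. From other lists at most 4 called genes with the largest absolute change are named per comparison, and for genes called for a drug on average the 2 genes with the highest correlation of log2 CPM (prior count 2) after removing line means. Members and lists were chosen with earlier results of these data known. No label names a batch. Results for some genes of the other lists are not reported here. Depth of 16175077 counts or more puts a floor of 3 counts at 0.1855 CPM or less, for counting error only.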

Additional observations from a re-analysis of the deposited data

Results flagged for a closer look

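In groups of 4 values, 1 per line, 130 groups of levels or of log2 changes between treatments were examined. In 9 of them, all groups of levels, 1 line stood far from the other 3. Chance marks about 1 in 20 independent groups. Groups of the same gene repeat the same lines and are not independent, so the 9 cannot be judged against that rate. HDAC4 was set apart by PF382 at 122 CPM with romidepsin plus 125 nM azacitidine, 165 CPM at 250 nM azacitidine and 170 CPM at 125 nM. HDAC9 was set apart by TLOm1 at 72.5 CPM with romidepsin plus 250 nM azacitidine, 79.3 CPM with romidepsin plus 125 nM, 65.1 CPM at 125 nM azacitidine, 88 CPM with romidepsin alone and 72.7 CPM untreated. HDAC11 was set apart by HH at 10 CPM untreated.

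Effects of a drug differed between lines by an F test of their equality in edgeR. For romidepsin these were HDAC2 (adjusted p = 0.0131), HDAC3 (0.0151), HDAC4 (0.000268), HDAC9 (0.00617) and HDAC11 (0.0128), and for azacitidine HDAC2 (0.025), HDAC4 (0.0184) and HDAC9 (0.0489).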

How the results depend on the processing

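Counts are of the 10 genes called; paired by cell line, the main fits keep the line as a replicate block. Without it, or with only the libraries compared, 0 genes were called for romidepsin plus azacitidine at 125 nM (main 1), at 250 nM (main 5) or against romidepsin (main 4). Of all genes, both kinds of fit called 0% at 125 nM. At 250 nM they called 0.0281% without the line and 0.231% with only the libraries compared, and against romidepsin 0.00562% and 0.425%. DESeq2 called 1 at azacitidine 250 nM (limma-voom 1) and 1 for the combination against it (main 0 each), and the slope without romidepsin gave 1 (main 3). The shares of all genes were 7.43% (limma-voom 7.38%), 6.94% and 8.69%. With 1 line or dose left out, counts ran 0 to 5 for the dose slope, 1 to 7 for averaged azacitidine (main 6), 0 to 10 within lines (main 7) and 0 to 3 for its line inequality (main 3). Shares of all genes ran 4.52% to 30.7% for the slope, 12.1% to 35.9% averaged, 0.306% to 30.4% within a line and 0.346% to 22.5% for inequality. For romidepsin the counts ran 5 to 8 averaged (main 8), 7 to 18 within lines (main 14) and 1 to 7 for inequality (main 5). Shares of all genes were 26.3% to 39.3% averaged, 1.2% to 36.3% within a line and 11% to 33.6% for inequality. For the combination the counts ran 0 to 1 at 125 nM, 2 to 3 at 250 nM, 0 to 3 against romidepsin and 0 to 1 against azacitidine. Shares of all genes were 2.58% to 5.03%, 14.2% to 17.6%, 7.2% to 9.5% and 1.11% to 3.49% in that order. The cause of these moves was not tested; fits with a line or dose left out hold fewer libraries.

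Signs turned in 20 estimates, counted only where either fit was called or the value moved by more than its SE in the main fit. Smaller turns of sign were not counted. With romidepsin only, PF382 minus H9 was 0.148 for HDAC11 and TLOm1 minus HH -0.113 for HDAC8, and without it PF382 minus TLOm1 was 0.152 for HDAC3 (adjusted p = 0.0389); the HDAC3 slope with romidepsin was 0.016. HDAC9 was -0.07 at azacitidine 125 nM and -0.211 at 250 nM without the line term (-0.04 by limma-voom), -0.18 and -0.033 for the combination against romidepsin under these settings, and its slope was -0.09 by limma-voom and -0.04 without romidepsin. With 1 line or dose left out, romidepsin changes ran -0.131 to 0.231 for HDAC11 in HH, -0.047 to 0.049 for HDAC4 in TLOm1 and -0.183 to 0.014 for HDAC4 averaged. Azacitidine changes ran -0.074 to 0.085 for HDAC2 averaged, and at 250 nM -0.059 to 0.137 for HDAC2 and -0.085 to 0.286 for HDAC5. Slopes ran -0.084 to 0.216 for HDAC4 and -0.015 to 0.215 for HDAC9. None of these was called in the main fits except averaged HDAC4. Depth limits HDAC9 most, at 15 counts in 1 library.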
